A study of Mus musculus with 15 samples.

Results

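Oxidative phosphorylation is the final stage of respiration in mitochondria. Complexes I and II feed electrons from NADH and succinate into coenzyme Q, complex III hands them to cytochrome c, complex IV passes them to oxygen, and complex V, the ATP synthase, makes ATP with the proton gradient that complexes I, III and IV build. Most of the subunits are encoded in the nucleus and imported, and a few subunits of complexes I, III, IV and V are encoded by mitochondrial DNA, so that these complexes need both genomes, whereas complex II is encoded by the nucleus alone. T cells leave quiescence with growth and division, and mitochondrial respiration is a known part of that change.

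The genes described here are the nuclear-encoded subunits, taken by symbol from the deposited table, namely the Nduf genes of the a, b, c, s and v series, Sdha to Sdhd, and symbols that start with Uqcr, Cox4 to Cox8 or Atp5, without the 6 symbols that carry the ending -ps. They numbered 84 of the 49492 genes in the table. Complex I held 35 of them, complex II 4, complex III 8, complex IV 20 and complex V 15. Complex IV here includes Ndufa4, which is now known as a subunit of complex IV, its paralogue Ndufa4l2, and Cox7a2l, a factor of respiratory supercomplexes. The remaining 2, Atp5s and Atp5sl, are matched by the symbols but are not subunits, and Atp5sl encodes a factor of complex I assembly. Of the 84, 79 passed the filter on low counts and were tested among 19942 genes.

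RNA was sequenced from sorted mouse CD4+ T cells of the OT-II line, whose transgenic receptor recognises an ovalbumin peptide, in 5 groups of 3 libraries. The donor cells of every group were CD45.1+ OT-II cells without a stated mutation beyond the transgene, and the recipients were CD45.2+ C57BL/6 (WT) or Batf3-/- mice. Batf3 is a transcription factor required for type 1 conventional dendritic cells, and its loss concerns the host and not the sequenced cells. The naive group was CD44 low CD62L+ cells from superficial lymph nodes and spleens of untreated CD45.1×OT-II mice. The primed groups were CD44 high donor cells of the mediastinal lymph node, sorted as CD62L- or CD62L+ from WT or from Batf3-/- recipients 5 days after intranasal 60 µg ovalbumin with 30 µg papain in 3 doses, which began 24 hours after transfer. Papain is a protease used as a type 2 adjuvant, and CD62L is the receptor by which T cells enter lymph nodes. Naive cells were not transferred, so priming, transfer, organ and sort cannot be told apart between naive and primed cells.

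Library totals ran from 38082967 to 99380475 counts, and the described genes took 0.859 to 1.26% of them. The labels call the replicates independent but do not tie them to animals, so the p-values rest on the spread among libraries of a group, which may be technical. Trac and Cd4 averaged 7935 and 822 CPM (counts scaled to library size with edgeR's TMM factors) in naive cells and at least 9616 and 1333 CPM in each primed group. Of 10 dendritic cell and macrophage genes Clec9a had 0 counts, but the 10 summed to 16.2 to 20.7 CPM in naive and 15.9 to 25.4 CPM in primed libraries. Of the 8 tested, 1 was called higher and 1 lower in primed cells. Lyz2 averaged 4.66 CPM in naive cells and 10.7 to 14.6 CPM in the primed groups. Markers of other cells differed with the groups. The 2 CD8 T cell genes summed to 48.4 to 57.6 CPM in naive and 12 to 30 CPM in primed libraries, and 1 was called lower. The 7 erythroid genes summed to 574 to 680 CPM in the naive libraries and 9.4 to 101 in the primed ones, where all 7 were called lower. The 16 B cell genes summed to 949 to 1126 CPM in naive and 625 to 862 in primed libraries, most of it Ighm. The first library of each group held 3.86 to 5.26% of its counts on ribosomal RNA loci and the others 8.36 to 16.7%. The third WT CD62L- library, with the lowest total, and the third Batf3-/- CD62L- library, with the highest ribosomal RNA share, stood apart in earlier results of these data, and counts without both are given below. In such bulk samples fewer cells of a type and less RNA per cell cannot be told apart.

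The summed level of the 84 genes was lowest in naive cells and highest in CD62L+ cells of Batf3-/- recipients. The naive libraries held 8893, 8749 and 8146 CPM. WT CD62L- libraries held 10823, 10468 and 10058 CPM, and WT CD62L+ libraries 10770, 11565 and 11659 CPM. Batf3-/- CD62L- libraries held 11427, 11432 and 10918 CPM, and Batf3-/- CD62L+ libraries 11927, 12057 and 12162 CPM. All 12 primed libraries lay above all 3 naive ones, and the 3 libraries of Batf3-/- CD62L+ cells lay above all others. The group means were 8596 ± 396 CPM (SD, n = 3) in naive, 10450 ± 383 in WT CD62L-, 11331 ± 488 in WT CD62L+, 11259 ± 295 in Batf3-/- CD62L- and 12049 ± 118 in Batf3-/- CD62L+ cells. WT CD62L+ and Batf3-/- CD62L- cells, neighbours in this order, overlapped, and WT CD62L- cells overlapped WT CD62L+ cells.

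In complexes I, III, IV and V every primed library lay above every naive one. Complex III went from 930 ± 59.3 CPM in naive to 1214 ± 71.4, 1297 ± 17.5, 1266 ± 68.9 and 1388 ± 11.3 CPM in WT CD62L-, WT CD62L+, Batf3-/- CD62L- and Batf3-/- CD62L+ cells. Complex II summed to 714 ± 66.8 CPM in naive cells and 806 ± 52.5, 805 ± 16.1, 760 ± 66.9 and 790 ± 30.9 CPM in the same order. Naive and primed libraries overlapped in complex II, the only one of the 5 in which they did. In complex I the first library of a group was the highest in naive, WT CD62L-, Batf3-/- CD62L- and Batf3-/- CD62L+ cells, with 3196, 2895 and 2658 CPM in WT CD62L- and 3469, 3144 and 2814 CPM in Batf3-/- CD62L- cells. Those first libraries are the ones with the least ribosomal RNA, and its part in the result was not tested.

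**Figure D1:**
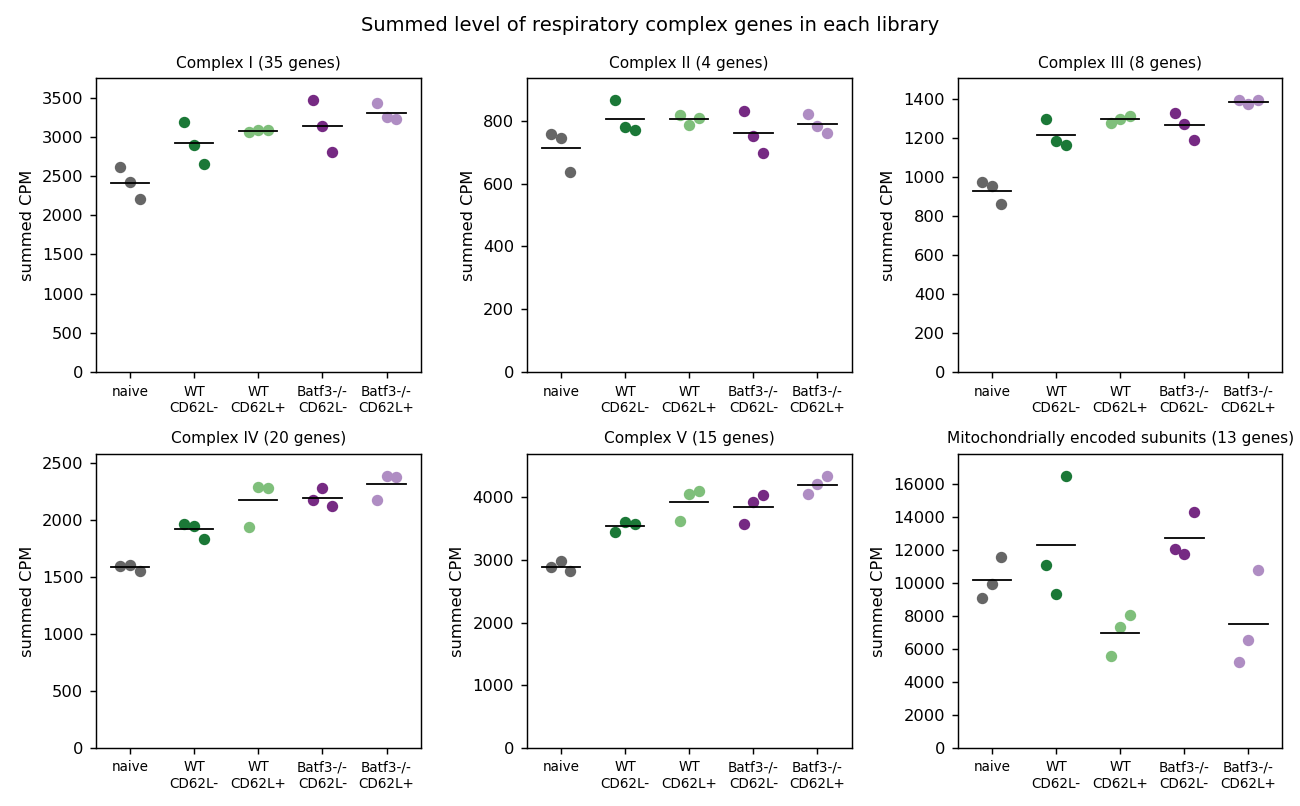
Summed CPM of the nuclear-encoded genes of each complex, and of the 13 subunits encoded by mitochondrial DNA, in each of the 15 libraries (points, in the order of replicate numbers) with the group mean (line); the y axes start at 0. Complexes I, III, IV and V were higher in every primed library than in every naive one, from 1549 to 1601 CPM in naive to 1836 to 2387 CPM in primed libraries for complex IV, while complex II overlapped and the mitochondrially encoded subunits averaged 6976 and 7482 CPM in CD62L+ against 12276 and 12673 CPM in CD62L- cells.

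Most subunits had higher transcript levels in primed than in naive cells. Over the mean of the 4 primed groups against naive cells, 53 of the 79 tested genes were called higher and 3 lower at an adjusted p under 0.05 (edgeR's quasi-likelihood test, Benjamini-Hochberg adjusted over 19942 genes). Of all genes tested, 38.8% were called in this comparison, 19.5% higher and 19.3% lower, against 67.1% and 3.8% of the described genes. The median log2 fold change was 0.47 over the 79 genes and -0.05 over all genes tested. Among the largest called rises were Ndufs8 of complex I at 1.91-fold, Uqcr10 at 1.78-fold, Cox8a at 1.76-fold, Cox5a at 1.75-fold, Ndufv2 at 1.66-fold and Atp5g3 at 1.64-fold. In 33 genes (41.8%, against 13.3% of all genes tested) every primed library was above every naive one, and in 1 gene, Ndufs7, every primed library was below (1.27%, against 13.0%). The log2 fold change was above 0 in 69 of the 79 genes (87.3%, against 47.7%). Without the third naive library, the lowest of the 3, the count was 42 higher and 0 lower, and without the 2 libraries that stood apart it was 59 higher and 1 lower.

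**Figure D2:**
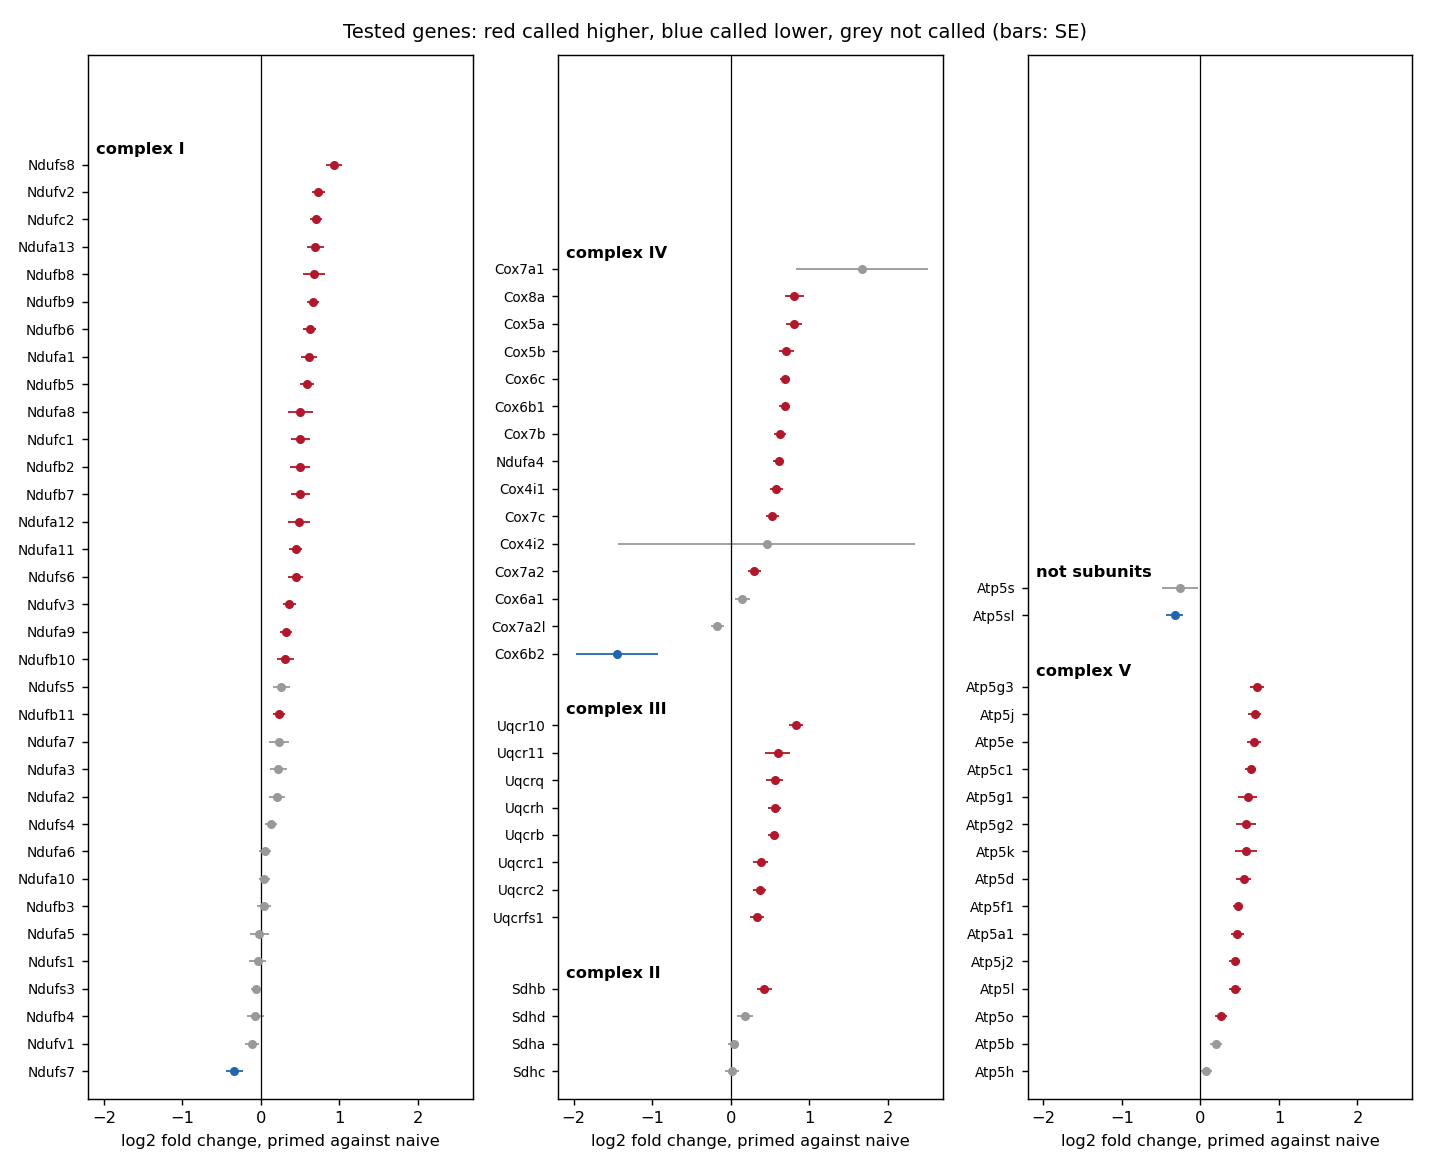
Log2 fold change of the tested genes, 4 primed groups against naive cells, with its standard error (bars), sorted within complexes; red genes were called higher, blue lower and grey neither. All 8 genes of complex III and 13 of 15 of complex V lie in red to the right of 0, complex I reaches from Ndufs8 at 0.93 to Ndufs7 at -0.34, and Cox7a1 and Cox4i2 have wide bars at very low levels.

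Promoter sequence was read for genes at the ends of this range, to show the windows of a gene that rose most (Ndufs8), of others that rose (Cox8a, Atp5g3), of genes that were not called (Ndufs3, Sdha) and of the complex I gene that fell (Ndufs7). The windows are from RefSeq on GRCm38.p6 and run from 150 bases before to 30 after the annotated start, at chr19:3912745-3912924 for Ndufs8, chr19:7217587-7217766 for Cox8a, chr2:73911297-73911476 for Atp5g3, chr2:90904692-90904871 for Ndufs3 and chr13:74350211-74350390 for Sdha, all on the minus strand, and chr10:80249299-80249478 on the plus strand for Ndufs7. Capitals mark matches on either strand to motifs of NRF1 (Sdha and the end of Atp5g3), ETS factors (Ndufs8, Cox8a, Ndufs3), estrogen-related receptors (the first match in Atp5g3) and the TATA box (Ndufs7).
Ndufs8: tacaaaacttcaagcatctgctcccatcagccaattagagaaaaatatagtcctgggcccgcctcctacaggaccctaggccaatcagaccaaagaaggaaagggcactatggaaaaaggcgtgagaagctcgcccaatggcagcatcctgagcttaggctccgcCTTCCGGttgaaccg
Cox8a: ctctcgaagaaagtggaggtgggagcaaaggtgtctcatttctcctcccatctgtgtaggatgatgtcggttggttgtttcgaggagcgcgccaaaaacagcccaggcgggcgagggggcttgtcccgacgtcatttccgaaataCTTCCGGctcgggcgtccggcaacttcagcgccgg
Atp5g3: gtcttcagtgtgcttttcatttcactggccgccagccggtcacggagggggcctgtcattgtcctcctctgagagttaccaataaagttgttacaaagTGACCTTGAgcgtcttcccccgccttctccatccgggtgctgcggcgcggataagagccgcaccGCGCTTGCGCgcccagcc
Ndufs3: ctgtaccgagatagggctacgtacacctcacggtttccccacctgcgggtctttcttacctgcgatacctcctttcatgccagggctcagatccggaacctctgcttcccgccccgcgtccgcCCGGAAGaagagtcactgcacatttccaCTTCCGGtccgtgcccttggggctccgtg
Sdha: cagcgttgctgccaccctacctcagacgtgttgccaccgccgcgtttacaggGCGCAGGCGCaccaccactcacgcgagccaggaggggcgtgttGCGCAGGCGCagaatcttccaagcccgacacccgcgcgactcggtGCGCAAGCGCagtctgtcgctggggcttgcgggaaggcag
Ndufs7: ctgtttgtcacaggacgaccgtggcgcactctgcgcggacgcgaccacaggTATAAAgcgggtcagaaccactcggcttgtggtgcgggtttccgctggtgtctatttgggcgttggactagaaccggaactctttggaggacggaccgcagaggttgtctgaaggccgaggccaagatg

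The motifs were searched on both strands in windows from 250 bases before to 50 after the start, which RefSeq gave for 69 of the 84 genes (75 windows). The NRF1 motif, of a factor known to bind promoters of respiratory genes, was in 24.0% of these windows, against 4.6% of all 32851 windows and 9.21% of the 13740 windows of tested genes. The ETS motif (CCGGAAG), bound by GABP among others, was in 21.33%, against 8.86% of all windows and 16.6% of those of tested genes. The YY1 motif (AAGATGGC) was in 16.0%, against 2.75% and 4.21%. The motif of estrogen-related receptors (TCAAGGTCA) was in 2.67%, against 0.42% and 0.277%, and TATAAA was in 10.67%, against 13.62% and 7.44%. The 75 windows include those of Cox7b2 and Cox8b, which held TATAAA and were below the filter on counts. Of the 67 tested genes with a window, 5 held TATAAA. A match is a description of letters and not a bound site. Of the windows printed above, Sdha held 3 NRF1 matches and its level did not pass the test, Ndufs3 held an ETS match on each strand and was not called either, and Ndufs8 held 1 ETS match 16 bases after the start. The TATAAA match of Ndufs7 began 99 bases before the start, and the longer window of this gene also held a YY1 match, which is not marked above. Among the 67 tested genes with a window, NRF1 was in 9 of 45 that were called higher and in 8 of 22 that were not, and the ETS motif was in 12 of 45 and 4 of 22.

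Complex I, the NADH dehydrogenase, had 21 of 35 genes called higher and 1 lower and a median log2 fold change of 0.36. Called and uncalled genes were both found among the core subunits, which carry the flavin and the iron-sulphur clusters. Ndufs8 (chr19:3908870-3912717, build mm10), a subunit that holds iron-sulphur clusters near the coenzyme Q site, held 74.1, 68.5 and 58.6 CPM in naive cells. It held 135, 120 and 100 CPM in WT CD62L-, 124, 127 and 127 in WT CD62L+, 147, 131 and 119 in Batf3-/- CD62L- and 141, 138 and 131 in Batf3-/- CD62L+ cells. Every primed library was above every naive one, and the rise was 1.91-fold (log2 fold change 0.93, SE 0.10, adjusted p = 3.86e-06, edgeR's quasi-likelihood test). Ndufv2, an iron-sulphur subunit of the NADH-binding end, rose likewise, without overlap, from 83, 91.1 and 84.7 CPM to 119 to 167 CPM (log2 fold change 0.73, SE 0.08, adjusted p = 8.63e-06).

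Other core subunits were not called higher. Ndufv1, which binds NADH and the flavin, held 107, 92.3 and 85.0 CPM in naive and 71.0 to 96.2 CPM (median 89.1) in primed libraries, with overlap (log2 fold change -0.11, SE 0.09, adjusted p = 0.385). Ndufs1, the largest iron-sulphur subunit, held 125, 99.9 and 91.9 CPM in naive and 86.6 to 118 CPM in primed libraries (log2 fold change -0.04, adjusted p = 0.825), and its sign turned in 4 alternatives. Ndufs3 held 94.0, 86.7 and 80.6 CPM in naive and 79 to 93 CPM in primed libraries (log2 fold change -0.06, adjusted p = 0.566), with 17.9% of its 50-base stretches found in transcripts of other genes. Naive and primed cells overlapped in these 3 genes. Ndufs7 (chr10:80249121-80256794), which carries the last iron-sulphur cluster before coenzyme Q, held 106, 99.9 and 98.8 CPM in naive and 83.7, 81.0 and 56.5 CPM in WT CD62L-, 86.4, 80.2 and 75.3 in WT CD62L+, 86.2, 82.7 and 68.2 in Batf3-/- CD62L- and 96.5, 87.5 and 78.6 in Batf3-/- CD62L+ cells. It was lower in every primed library and fell by 0.34 on the log2 scale (SE 0.11, adjusted p = 0.0221). That call was lost when any 1 naive library was left out, with adjusted p of 0.0938, 0.0611 and 0.0573 without the first, the second and the third, while the log2 fold change stayed between -0.36 and -0.31.

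**Figure D3:**
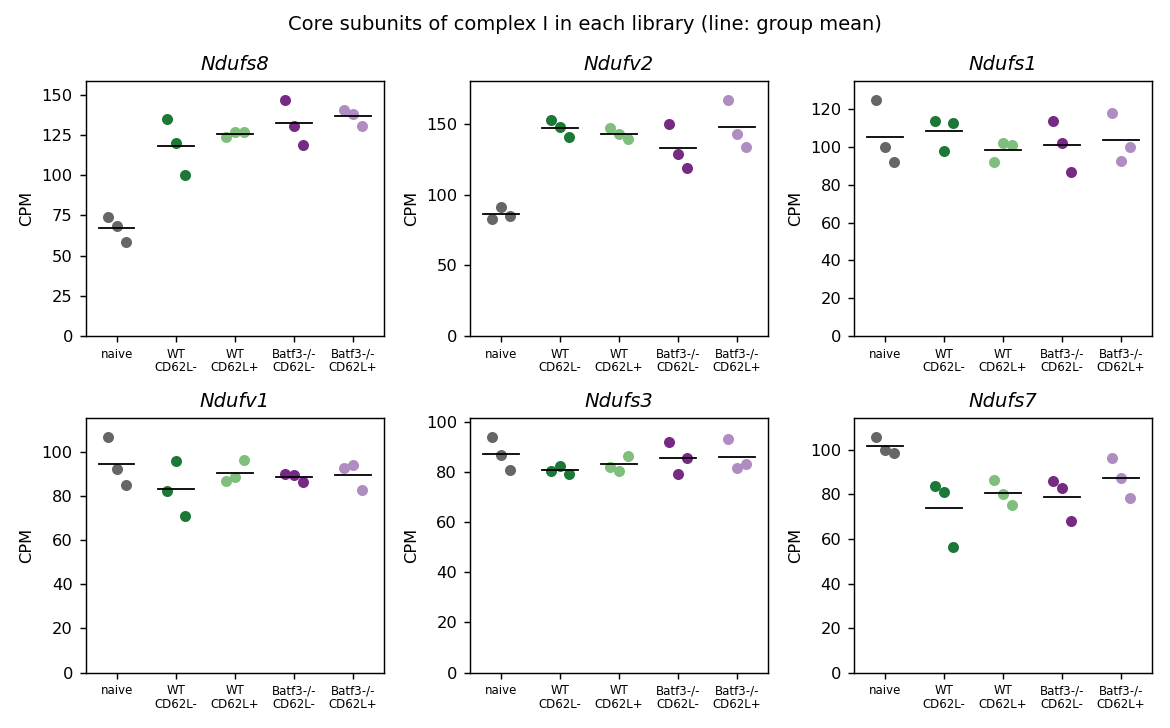
CPM of core subunits of complex I in each library (points) with group means (lines); the y axes start at 0. Ndufs8 and Ndufv2 are above the naive level in all 12 primed libraries, Ndufs1, Ndufv1 and Ndufs3 overlap, and Ndufs7 is below its naive values of 98.8 to 106 CPM in all 12.

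The 28 accessory subunits of complex I, which surround the core and help assemble it, were called higher in 18 cases and lower in none. In the arm that lies in the membrane 14 of 19 were called higher (median log2 fold change 0.50), and in the arm that reaches into the matrix 4 of 9 (median 0.23); these classes were drawn up with the results known, and the difference between them was not tested. Ndufc2 led the membrane arm at a log2 fold change of 0.70, followed by Ndufa13 at 0.69, Ndufb8 at 0.68, Ndufb9 at 0.66 and Ndufb6 at 0.62. Of Ndufa13, also known as the cell death factor GRIM-19, 30.0% of the exon length overlaps Tssk6, and of Ndufb6 39.0% overlaps Toporsos, both on the other strand. Ndufa1, the complex I gene with the highest level per length (183 CPM per kb over all libraries), held 55.5, 57.7 and 48.7 CPM in naive and 66.0 to 93.6 CPM in primed libraries, above naive throughout (log2 fold change 0.61, SE 0.10, adjusted p = 0.000188). The lowest accessory values were Ndufb4 at -0.07, Ndufa5 at -0.02, Ndufb3 and Ndufa10 at 0.04, and Ndufa6 at 0.05, none called. Leaving out the second or the third naive library lowered the complex I count from 21 to 17 or 15 higher.

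Complex II, succinate dehydrogenase, which is also an enzyme of the citric acid cycle, rose in 1 of its 4 genes. Sdhb, the iron-sulphur subunit (chr4:140961203-140979193), held 161, 147 and 132 CPM in naive, 214, 181 and 168 in WT CD62L-, 202, 189 and 190 in WT CD62L+, 222, 190 and 182 in Batf3-/- CD62L- and 208, 221 and 198 CPM in Batf3-/- CD62L+ cells. All primed libraries were above the naive ones, 1.34-fold on average (log2 fold change 0.43, SE 0.09, adjusted p = 0.0014), and against naive cells the log2 fold change was 0.36, 0.40, 0.43 and 0.51 in the 4 groups in that order, each called. Sdha, the flavin subunit that oxidises succinate, held 400, 390 and 343 CPM in naive cells, and the 12 primed libraries ran from 341 to 440 CPM (median 397). The groups overlapped fully (log2 fold change 0.04, SE 0.07, 95% interval -0.11 to 0.18, adjusted p = 0.702), although Sdha had the highest level per length in complex II (99.6 CPM per kb). The membrane anchors Sdhc and Sdhd had log2 fold changes of 0.02 (interval -0.16 to 0.21, adjusted p = 0.862) and 0.18 (interval -0.03 to 0.39, adjusted p = 0.159). None of Sdha, Sdhc and Sdhd was called against naive cells in any of the 4 primed groups, and Sdhd was called higher only without the 2 libraries that stood apart (0.26, adjusted p = 0.0186).

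Complex III, which moves electrons from coenzyme Q to cytochrome c, had all 8 of its genes called higher, with a median log2 fold change of 0.56. Uqcr10, a small membrane subunit (chr11:4701973-4704342), held 68.8, 63.4 and 58.6 CPM in naive, 116, 95 and 94.2 in WT CD62L-, 105, 111 and 107 in WT CD62L+, 134, 116 and 102 in Batf3-/- CD62L- and 120, 130 and 132 CPM in Batf3-/- CD62L+ cells. The groups did not overlap, and it rose 1.78-fold (log2 fold change 0.83, SE 0.09, adjusted p = 7.64e-06). The other small subunits Uqcr11, Uqcrq, Uqcrh and Uqcrb had log2 fold changes of 0.60, 0.56, 0.56 and 0.55, with 25.5% of the 50-base stretches of Uqcrb shared with other transcripts. The larger subunits rose less. Uqcrc1, a core protein, held 377, 327 and 292 CPM in naive and 361 to 502 CPM in primed libraries, with overlap (log2 fold change 0.38, SE 0.10, adjusted p = 0.00749), and Uqcrfs1, the Rieske iron-sulphur protein, 111, 102 and 90.3 against 108 to 149 CPM (0.33, SE 0.09, adjusted p = 0.0109). Uqcrc2, the other core protein, had 0.37 (adjusted p = 0.00187), and 19.7% of its exon length overlaps Pdzd9 on the other strand. Without the third naive library 5 of the 8 were called, and Uqcrc1 (adjusted p = 0.0644) and Uqcrfs1 (adjusted p = 0.0873) were among those lost.

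Complex IV, cytochrome c oxidase, has subunits with paralogues that mark tissues or states, and in these cells the widely expressed forms carried nearly all of the signal. Of 20 genes 15 were tested, 10 were called higher and 1 lower, and the median log2 fold change was 0.61. Cox8a, a small membrane subunit (chr19:7215158-7217616), held 98.5, 104 and 99.3 CPM in naive, 160, 167 and 114 in WT CD62L-, 140, 184 and 191 in WT CD62L+, 185, 198 and 199 in Batf3-/- CD62L- and 183, 207 and 208 CPM in Batf3-/- CD62L+ cells. It was above naive in every primed library, least so in the third WT CD62L- library, and rose 1.76-fold (log2 fold change 0.81, SE 0.12, adjusted p = 6.52e-05). Cox5a, a subunit on the matrix side, rose from 77.1, 68.7 and 70.9 CPM to 103 to 148 CPM without overlap (0.81, SE 0.10, adjusted p = 1.52e-05); 12.8% of its exon length overlaps Gm26631. Cox4i1, the regulatory subunit that binds ATP, rose from 285, 296 and 268 CPM to 364 to 472 CPM without overlap (0.58, SE 0.08, adjusted p = 3.32e-05); 9.9% of its length overlaps Emc8. Cox6c held 108, 102 and 101 CPM in naive and 147 to 194 CPM in primed libraries and had the smallest adjusted p of the 79 genes (0.69, SE 0.06, adjusted p = 9.6e-07).

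Levels per exon length set the paralogues apart. In naive cells Cox4i1 averaged 183 CPM per kb and Cox4i2, the form of lung and of low oxygen, 0.0647. Cox6a1 averaged 248 and the heart and muscle form Cox6a2 0.00937 CPM per kb, and Cox6b1 averaged 182 against 1.16 for the testis form Cox6b2. Cox7a2 averaged 75.7 and the heart and muscle form Cox7a1 0.198 CPM per kb. Ndufa4 averaged 56.8 and its paralogue Ndufa4l2, a gene known to be induced in low oxygen, 0.0161. The widely expressed form was thus far above its paralogue in each pair, and this held in all 5 groups. Cox7b2, Cox8b and Cox8c had 0 counts in all 15 libraries, Ndufa4l2 24 counts in all and Cox6a2 28, of which 18 were in a single library, and these 5 genes were below the filter. Cox4i2 had 80 counts over 7 libraries and Cox7a1 331 counts over 15, and neither was called (log2 fold change 0.46, adjusted p = 0.886, and 1.67, adjusted p = 0.136).

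Among the widely expressed complex IV genes, Cox6a1 and Cox7a2l were not called higher. Cox6a1 held 184, 173 and 165 CPM in naive and 131 to 216 CPM (median 199) in primed libraries (log2 fold change 0.15, SE 0.09, adjusted p = 0.212), and was called higher without the third WT CD62L- library (0.18, adjusted p = 0.0246) and without both libraries that stood apart (0.21, adjusted p = 0.0142). Cox7a2l held 349, 369 and 373 CPM in naive and 266 to 378 CPM (median 318) in primed libraries, with overlap (log2 fold change -0.17, SE 0.08, adjusted p = 0.0992), and was called lower under the replicate block (-0.18, adjusted p = 0.0186) and without the third WT CD62L- library (-0.20, adjusted p = 0.0475). Its relative Cox7a2 rose by 0.30 (adjusted p = 0.00954), a call lost without the third naive library (0.28, adjusted p = 0.0523). Cox6b2 was called lower at 0.497, 1.3 and 2.07 CPM in naive and 0.166 to 1.09 CPM in primed libraries (log2 fold change -1.45, SE 0.52, adjusted p = 0.0393), with overlap. This call at a very low level was lost with no filter (adjusted p = 0.0618) and on leaving out the second or the third naive library (0.106 and 0.319), the second WT CD62L- (0.0548), the first or second WT CD62L+ (0.0532 and 0.0592), the second or the third Batf3-/- CD62L- (0.0504 and 0.0584), either of the last 2 Batf3-/- CD62L+ libraries (0.0549 and 0.0587), or the 2 libraries that stood apart (0.0717). Cox7b, Ndufa4, Cox6b1, Cox5b and Cox7c rose by log2 fold changes of 0.63, 0.61, 0.69, 0.71 and 0.53, with 22.1% of the 50-base stretches of Cox7c shared with other transcripts.

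**Figure D4:**
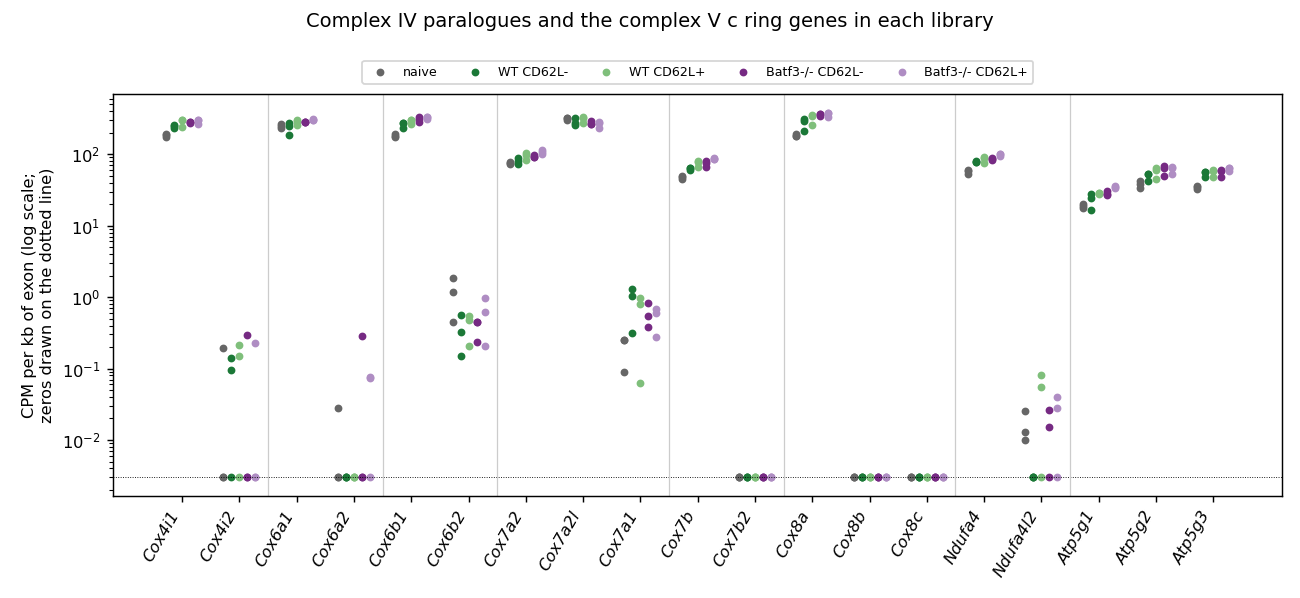
Level per kb of exon, on a log scale, of complex IV genes and their paralogues and of the 3 genes of the complex V c ring, in each library and coloured by group; libraries without counts are drawn on the dotted line. The widely expressed forms lie far above their paralogues in every library, and Cox4i2, Cox6a2, Cox6b2, Cox7a1 and Ndufa4l2 lie at or below 1.87 CPM per kb.

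Complex V, the ATP synthase, was called higher in 13 of 15 genes, with none lower and a median log2 fold change of 0.55. The c ring, the rotor of the enzyme, is made from 3 genes that encode the same mature peptide, and all 3 rose. Atp5g3 held 71.3, 75.4 and 78.0 CPM in naive, 105, 123 and 121 in WT CD62L-, 104, 131 and 128 in WT CD62L+, 104, 126 and 131 in Batf3-/- CD62L- and 129, 138 and 140 CPM in Batf3-/- CD62L+ cells. It did not overlap with naive cells in any primed group (log2 fold change 0.72, SE 0.09, adjusted p = 2.72e-05). Atp5g1 rose by 0.60 (SE 0.12, adjusted p = 0.000883) and Atp5g2 by 0.58 (SE 0.13, adjusted p = 0.00295), with 11.1% and 38.3% of their 50-base stretches shared with other transcripts, against 0 in Atp5g3. Per exon length, naive cells held 38 CPM per kb of Atp5g2, 34.3 of Atp5g3 and 18.7 of Atp5g1, and Atp5g1 stayed the lowest of the 3 in all groups. That order rests on the annotated exon length, 4912 bases for Atp5g1 against 1675 for Atp5g2 and 2181 for Atp5g3. In CPM without the length, Atp5g1 was the highest in naive cells, at 92.0 against 63.6 for Atp5g2 and 74.9 for Atp5g3. By that measure it was not the lowest in any group.

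Of the catalytic F1 part, Atp5a1, the alpha subunit and the complex V gene with the highest level per length (234 CPM per kb), held 574, 573 and 535 CPM in naive and 678 to 880 CPM in primed libraries without overlap (log2 fold change 0.47, SE 0.08, adjusted p = 0.000411). Atp5c1, Atp5d and Atp5e, the gamma, delta and epsilon subunits of the central stalk, had 0.64, 0.55 and 0.68. Atp5b, the catalytic beta subunit, held 773, 835 and 804 CPM in naive and 770 to 1074 CPM (median 940) in primed libraries. Its groups overlapped, and at 0.20 (SE 0.08, 95% interval 0.02 to 0.38, adjusted p = 0.072) it missed the threshold. It was called higher under limma's voom (0.21, adjusted p = 0.0118), under the replicate block (0.20, adjusted p = 0.00609) and on leaving out the first library of any primed group (adjusted p 0.0235 to 0.0481). In the peripheral stalk Atp5j and Atp5f1 rose by 0.69 and 0.48 and Atp5o by 0.26 (adjusted p = 0.0145), with 41.1% of the stretches of Atp5o shared with other transcripts, while Atp5h had 0.07 (adjusted p = 0.528) at 165, 175 and 173 CPM in naive and 134 to 201 CPM in primed libraries. The membrane subunits Atp5k, Atp5j2 and Atp5l rose by 0.58, 0.44 and 0.44.

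Genes beside the 82 subunits gave a mixed picture. Atp5sl held 55.3, 49.7 and 58.6 CPM in naive and 35.2 to 50.6 CPM in primed libraries, with overlap, and fell by 0.33 on the log2 scale (SE 0.11, adjusted p = 0.030), a call lost with no filter (0.061) and without the first or the third naive library (0.095 and 0.154), the first WT CD62L- (0.0667), the first WT CD62L+ (0.0683), the first or the second Batf3-/- CD62L+ library (0.0746 and 0.0735) or the 2 libraries that stood apart (0.0568). Atp5s held 4.85 to 7.88 CPM in naive and 3.44 to 7.97 CPM in primed libraries and was not called. Of 5 further nuclear genes of the complexes that the symbols miss, 3 rose. Atpif1, which encodes the inhibitor that stops the ATP synthase from hydrolysing ATP, went from 25.2 ± 1.8 CPM in naive to 63.9 ± 10, 57.9 ± 4.7, 72.0 ± 10 and 61.2 ± 0.61 CPM in the 4 primed groups in the order used above, a rise of 2.52-fold (log2 fold change 1.34, SE 0.11, adjusted p = 4.12e-07) that was larger than that of any of the 53 genes called higher. Usmg5 and 2010107E04Rik, small ATP synthase subunits, rose by 0.67 and 0.48, and Cyc1, cytochrome c1, and Ndufab1 had 0.16 and 0.09 without a call.

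The 13 subunits of the same complexes that mitochondrial DNA encodes had no call between the mean of the 4 primed groups and naive cells (0 of 13, edgeR's quasi-likelihood test, 0 higher and 0 lower at an unadjusted p under 0.05, median log2 fold change -0.10); no other tool was summarised for them. That mean joins groups on either side of naive cells. Against naive cells 1 of 13 was called lower in WT CD62L+ cells (median -0.48) and none in the other groups, and at an unadjusted p under 0.05 there were 2 lower in each CD62L+ group, 1 higher in Batf3-/- CD62L- and 0 in WT CD62L- cells. They summed to 10173 ± 1260 CPM in naive, 12276 ± 3730 in WT CD62L-, 6976 ± 1280 in WT CD62L+, 12673 ± 1400 in Batf3-/- CD62L- and 7482 ± 2920 CPM in Batf3-/- CD62L+ cells. These sums mainly describe the abundant genes. In each group mt-Co1 averaged at least 2224 CPM, and mt-Atp6, mt-Atp8, mt-Co2 and mt-Co3 at most 72 CPM. Sequence that the 13 share with other genes was not tested. In the sums the CD62L- libraries lay above the CD62L+ ones within WT recipients and within Batf3-/- recipients. Among single genes mt-Co3 went the other way in WT recipients, at 19.4 CPM in CD62L- and 23.1 CPM in CD62L+ cells. Over both recipients 4 of the 13 were called higher in CD62L- cells (median 0.60), where 1.53% of all genes were called higher and 1.43% lower. The nuclear subunits had no such call and a median of opposite sign, as given below.

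Each primed group was also compared with naive cells on its own, and these 4 comparisons share the 3 naive libraries. WT CD62L- cells had 33 genes called higher and 1 lower (30.1% of all genes called, 16.9% higher and 13.2% lower) with a median log2 fold change of 0.29. WT CD62L+ cells had 48 higher and 0 lower (27.2% of all genes, 15.8% higher and 11.4% lower) with a median of 0.47. Batf3-/- CD62L- cells had 48 higher and 0 lower (29.3%, 16.5% higher and 12.8% lower) with a median of 0.48, and Batf3-/- CD62L+ cells 55 higher and 1 lower (30.2%, 16.9% higher and 13.3% lower) with a median of 0.57. At an unadjusted p under 0.05, 1 gene was lower in WT CD62L+ cells (17.0% of all genes) and 3 in Batf3-/- CD62L- cells (18.1%), where DESeq2 called 0 and 2 lower and limma's voom 1 and 1. The gene called lower in WT CD62L- cells was Ndufs7 (-0.46, SE 0.14, adjusted p = 0.023) and in Batf3-/- CD62L+ cells Atp5sl (-0.40, adjusted p = 0.0446), and both calls were lost in several alternatives. Ndufs7 lost it without the first (adjusted p = 0.0698) or the second naive library (0.0506), on removal of the third WT CD62L- library (-0.30, 0.0794) or both libraries that stood apart (-0.27, 0.0583), and with the compared groups only (0.070). Atp5sl lost it in 12 of its alternatives, with adjusted p up to 0.247 without the second Batf3-/- CD62L+ library (-0.27). Without the 2 libraries that stood apart the counts were 45 higher in WT CD62L-, 53 in WT CD62L+, 54 in Batf3-/- CD62L- and 60 in Batf3-/- CD62L+ cells. Without the third naive library they were 27 called in WT CD62L- and 34 in WT CD62L+ cells.

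By complex, WT CD62L- cells had 11 of 35, 1 of 4, 4 of 8, 8 of 15 and 9 of 15 genes called higher in complexes I to V, and Batf3-/- CD62L+ cells 22, 1, 8, 10 and 14. Ndufs8 had the largest called rise in each of the 4 groups, at log2 fold changes of 0.82, 0.91, 0.98 and 1.03 in WT CD62L-, WT CD62L+, Batf3-/- CD62L- and Batf3-/- CD62L+ cells. Other large rises were Ndufv2 and Cox5a in WT CD62L- cells at 0.77 and 0.74, and Uqcr10, Cox8a, Atp5e and Cox5a in Batf3-/- CD62L+ cells at 1.0, 0.98, 0.97 and 0.97. The order of the groups was similar from gene to gene. Batf3-/- CD62L+ cells had the highest of the 5 group means in 63 of the 79 genes (79.7%, against 18.7% of all genes tested), and naive cells the lowest in 63 (against 33.9%). Among the primed groups WT CD62L- cells were lowest in 60 (75.9%, against 33.0%), and 56 genes (70.9%, against 16.3%) had both this lowest and that highest group. These genes share libraries, so their likeness counts as a single pattern of 15 libraries and carries no test.

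Between CD62L- and CD62L+ cells no gene of the 79 was called, while 1.22% of all genes were called in WT recipients, 0.501% in Batf3-/- recipients and 2.96% over both with equal weight (edgeR's quasi-likelihood test). Over both recipients 75 of the 79 log2 fold changes were negative, that is lower in CD62L- cells, against 50.8% of all genes, with a median of -0.11 against 0.00. At an unadjusted p under 0.05, 16 were lower and 0 higher (20.3%, against 7.52% of all genes lower and 7.18% higher). In WT recipients alone 9 were lower and 0 higher (against 6.75% and 5.54% of all genes), and in Batf3-/- recipients alone 3 and 0 (against 3.97% and 4.15%). DESeq2 called 4 of them lower over both recipients, limma's voom 4 and the replicate block 3, and in either recipient alone DESeq2 and voom called 0. Without the 2 libraries that stood apart, both CD62L-, the median was -0.05 and 62 of the 79 were negative. With all libraries, no gene had all 6 CD62L- below all 6 CD62L+ libraries (0.963% of all genes did).

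Cox7b, named because it had the smallest adjusted p after values were seen, held 77.4, 72.1 and 76.6 CPM in WT CD62L- against 81.3, 95.8 and 98.8 in WT CD62L+ cells. In Batf3-/- recipients it held 91.1, 96.2 and 79.4 CPM in CD62L- against 106, 104 and 104 in CD62L+ cells. The subsets did not overlap within a recipient type, and the difference was -0.26 on the log2 scale (SE 0.07, 95% interval -0.41 to -0.11, adjusted p = 0.0639). Atp5e followed at -0.25 (interval -0.41 to -0.09, adjusted p = 0.0994), then Cox7c at -0.22 (adjusted p = 0.132) and Atp5g1 at -0.31 (adjusted p = 0.138). The 95% intervals of single genes ran from -0.48 to 0.25 in complex I, from -0.37 to 0.16 in complex II, from -0.49 to 0.13 in complex III and from -0.52 to 0.14 in complex V. These are the outermost bounds over the genes of a complex, so that differences within them are not shown to be absent for every gene. The range of complex IV, which includes Cox4i2, Cox7a1 and Cox6b2 at very low levels, is not given. In WT recipients 8 genes (10.1%, against 9.82% of all genes) had all CD62L- below all CD62L+ libraries, and in Batf3-/- recipients 12 (15.2%, against 6.94%). B cell transcripts moved with the same split. The 16 B cell genes summed to 687 ± 58.9 and 691 ± 76.4 CPM in CD62L- against 825 ± 38 and 824 ± 10.8 CPM in CD62L+ cells of WT and Batf3-/- recipients, 12 of 16 were called lower in CD62L- cells, and Cd79a averaged 3.52 against 30.0 CPM in WT recipients. The sum of the mitochondrially encoded subunits, given above, was higher in CD62L- cells. The part of either in the result was not tested.

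Between recipients, the 79 genes leaned towards Batf3-/- hosts without a call. Over both subsets with equal weight 68 of 79 log2 fold changes were positive (86.1%, against 50.7% of all genes), with a median of 0.12, and 0 were called, where 0.441% of all genes were (edgeR's quasi-likelihood test). At an unadjusted p under 0.05, 25 were higher and 1, Sdha, lower (31.6% and 1.27%, against 6.38% and 5.45% of all genes). DESeq2 called 5 higher, limma's voom 3 and the replicate block 2. In CD62L- cells alone 18 were higher and 1 lower at an unadjusted p under 0.05 (6.28% and 4.25% of all genes), and DESeq2 called 1, Cox7c, while 0.0501% of all genes were called by edgeR. In CD62L+ cells alone 10 were higher and 1 lower (2.68% and 3.1% of all genes), and DESeq2 and voom called 0, while 0.00501% of all genes were called. Without the 2 libraries that stood apart the median was 0.11, with 70 positive.

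Atp5e, the epsilon subunit of F1 and the gene with the smallest adjusted p here, also named after values were seen, held 96.6, 97.7 and 79.2 CPM in WT CD62L- against 119, 121 and 110 in Batf3-/- CD62L- cells. In CD62L+ cells it held 96.5, 113 and 119 CPM in WT against 131, 136 and 145 in Batf3-/- recipients. Recipients did not overlap within a subset, and the difference was 0.34 on the log2 scale (SE 0.07, 95% interval 0.18 to 0.50, adjusted p = 0.0657). Cox7c had 0.29 (adjusted p = 0.109) and Cox6c 0.22 (SE 0.05, adjusted p = 0.114). Cox6c, at 147 to 165 CPM in WT and 168 to 194 CPM in Batf3-/- recipients, was the only one of the 79 with all 6 libraries of Batf3-/- above all 6 of WT recipients, against 0.451% of all genes. Sdha moved the other way, at 440, 410 and 419 CPM in WT and 399, 351 and 341 in Batf3-/- CD62L- cells, and 414, 386 and 406 against 395, 349 and 354 CPM in CD62L+ cells (log2 fold change -0.18, interval -0.31 to -0.05, adjusted p = 0.261). Within CD62L+ cells 29 genes (36.7%, against 6.9% of all genes) had all Batf3-/- above all WT libraries, and within CD62L- cells 17 (21.5%, against 8.44%). B cell sums differed by less than their SD between recipients, although 1 of the 16 B cell genes was called higher in Batf3-/- recipients (median log2 fold change 0.53). The 7 erythroid genes summed to 74.9 ± 27 and 62.6 ± 4.22 CPM in CD62L- and CD62L+ cells of WT against 33.0 ± 21 and 21.3 ± 13.7 CPM in those of Batf3-/- recipients, with a median log2 fold change of -1.38, 0 called by edgeR's quasi-likelihood test and 5 lower at an unadjusted p under 0.05. The mitochondrially encoded subunits had 0 of 13 called and 4 higher in Batf3-/- recipients at an unadjusted p under 0.05. Their levels did not move alike in CD62L- cells. There mt-Atp6, mt-Atp8 and mt-Co3 averaged 35.3, 15.9 and 19.4 CPM in WT and 72, 34.2 and 39.2 CPM in Batf3-/- recipients. The far more abundant mt-Co1 averaged 4206 CPM in WT and 3983 CPM in Batf3-/- recipients. The part of any of these in the result was not tested.

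**Figure D5:**
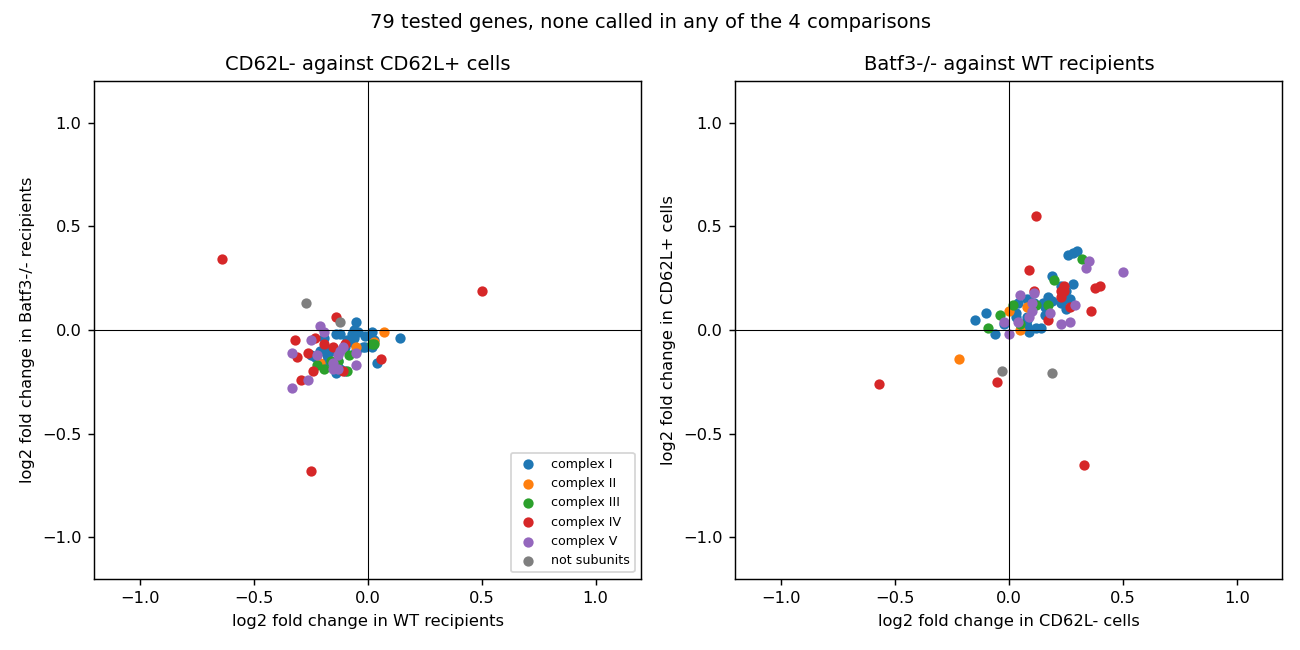
Log2 fold changes of the 79 tested genes, CD62L- against CD62L+ cells (left, WT on the x axis, Batf3-/- recipients on the y axis) and Batf3-/- against WT recipients (right, CD62L- cells on x, CD62L+ cells on y), coloured by complex. On the left most genes lie below 0 on both axes and on the right above 0, with medians of -0.13 and -0.09 and of 0.12 and 0.12; the far points are Cox4i2, Cox7a1 and Cox6b2 at very low levels.

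Whether the subset difference depended on the recipient was tested too. The test of the difference of differences called 0 of the 79 genes and 0.0% of all genes (edgeR's quasi-likelihood test), with 0 of the 79 at an unadjusted p under 0.05 against 2.21% of all genes higher and 2.11% lower, and DESeq2 and voom called 0 of the 79. The median was 0.02, against 0.03 for all genes. The spread of single genes limits this, as Atp5e had a 95% interval of -0.29 to 0.34 and Sdhb of -0.35 to 0.30.

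Assembly factors, which build the complexes, moved in both directions. Of 50 assembly factors 12 were called higher and 5 lower between primed and naive cells, where 19.5% and 19.3% of all genes were, with a median log2 fold change of 0.11. Of 15 for complex I, 4 rose, among them Ndufaf7, a mitochondrial methyltransferase, by 0.85 and Acad9 by 0.43, and 2 fell, Tmem186 by 0.65 and Ndufaf4 by 0.40. Of 4 for complex II, Sdhaf1, which helps to load the clusters of Sdhb, rose by 0.74 and Sdhaf2, which helps to insert the flavin of Sdha, by 0.25. Of 6 for complex III, Uqcc3 rose by 0.31 while Lyrm7, a chaperone of the Rieske protein, and Uqcc1 fell by 1.22 and 0.41. Of 21 for complex IV, 5 rose, among them the copper chaperone Cox17 by 0.67 and Surf1 by 0.35, and Coa7 fell by 0.50. Of 4 for complex V none was called (0 higher and 0 lower at an unadjusted p under 0.05).

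Beside the 19.5% of all genes called higher and 19.3% called lower, other mitochondrial lists were as follows. Among the electron carriers and coenzyme Q enzymes 5 of 17 were called higher and 3 lower (median 0.25). Etfb and Etfa, which pass electrons from fatty acid oxidation, rose by 1.35 (2.56-fold, SE 0.11, adjusted p = 2.76e-07) and 0.66, and Cycs, cytochrome c, rose by 0.36, while Pdss2 and Coq4 of coenzyme Q synthesis had log2 fold changes of -1.12 and -0.67. In the citric acid cycle 6 of 14 were called higher and 2 lower (median 0.16). Fh1, fumarase, went from 34.0 ± 1.4 CPM in naive to 62.6 ± 3.3, 68.4 ± 5.1, 66.4 ± 1.8 and 71.1 ± 4.8 CPM in the primed groups (log2 fold change 0.98, adjusted p = 1.72e-07), and Idh2, the NADP-linked isocitrate dehydrogenase, from 165 ± 8.2 to 82.2 ± 11, 101 ± 4.7, 80.2 ± 4.0 and 76.9 ± 2.9 CPM (-0.97, adjusted p = 7.33e-08). Suclg1 rose by 0.63 and Suclg2 fell by 0.31. Of 11 tested regulators of mitochondrial biogenesis none was called higher (0 at an unadjusted p under 0.05) and 5 were called lower (median -0.28). Pprc1, a coactivator of the PGC-1 family, averaged 60.0 ± 9.8 CPM in naive and 19.3 ± 2.8, 28.6 ± 5.7, 27.8 ± 7.4 and 36.6 ± 1.3 CPM in the primed groups (-1.13, SE 0.15, adjusted p = 2.71e-05). Ppargc1b, Polrmt, the RNA polymerase of mitochondria, Tfam and Nrf1 had -1.17, -0.91, -0.35 and -0.25, each called.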

How the data were processed

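Sorted cells of 15 samples in 5 groups of 3 were profiled by RNA-seq after 13 cycles of whole transcriptome amplification, per the labels' protocols. The listed tools include Trimmomatic 0.36, STAR 2.7.3a and, from Subread 1.6.5, featureCounts, with the build mm10, per the submitters' processing notes. The release of the annotation is not given in these sources. The authors deposited raw counts per gene, with exon length in bases, and other values per gene were computed from them. Groups came from the sample titles. The described genes and all lists were chosen with earlier results of these data known, and the classes of subunits too, so that counts are set beside those over all genes.

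Of 49492 genes, 19942 passed the low-count filter (filterByExpr, minimum count 10). One model with a term per group was fitted over all libraries with edgeR 4.0.16 (TMM, robust quasi-likelihood test) and checked on simulated counts. P-values were adjusted by Benjamini-Hochberg over all genes tested, with a threshold of 0.05. CPM are TMM-scaled, and standard errors follow from the fold change and F. Comparisons weight groups equally. Named by rule were all complex II genes, 8 core or catalytic subunits, genes with tissue-specific paralogues, the highest gene per length in each complex, the 6 largest called changes per direction and comparison (all if 12 or fewer), and the 2 smallest adjusted p per direction in other lists. Values of 1 gene are not reported here, in the text or by name in the figures. Other named genes were chosen after their values were seen. Shared sequence is the percentage of 50-base stretches of a gene's GENCODE M21 transcripts found in those of other genes, and overlaps are of exons in the deposited table. The sources do not say whether counting used strand, so reads of overlapping genes cannot be told apart. Intervals are at 95%.

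Results were recomputed with RLE scaling, without a filter, with a filter of 1 CPM in 3 libraries with a mean count of 20, with DESeq2 1.42.0, limma 3.58.1 voom with quality weights, the compared groups only, a replicate block, each library left out, and the 2 libraries that stood apart left out.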

Additional observations from a re-analysis of the deposited data

How the results depend on the processing

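Against naive cells the number of genes called stayed within 1.5 times under every alternative run. Leaving out 1 library gave 42 to 62 called for all primed cells, 27 to 37 for WT CD62L-, 34 to 51 for WT CD62L+, 41 to 52 for Batf3-/- CD62L- and 50 to 60 for Batf3-/- CD62L+ cells. The median log2 fold changes moved by less than the spread between replicates (0.0884) under RLE, no filter and the replicate block. Between subsets over both recipients, called genes were 1 with the stricter filter (Cox7b), 4 with DESeq2 (Cox7b, Atp5e, Cox7c, Uqcrb), 4 with voom (Cox7b, Atp5e, Cox7c, Atp5g1), 3 with the replicate block (Cox7b, Atp5g1, Atp5b), and 0 to 2 with 1 library left out, 1 (Atp5g1) without the first WT CD62L- and 2 (Cox7b, Atp5e) without the first WT CD62L+ library, all lower in CD62L- cells. Between recipients over both subsets they were 1 with the stricter filter (Atp5e), 5 with DESeq2 (Atp5e, Cox7c, Cox6c, Ndufb6, Ndufa11), 3 with voom (Atp5e, Cox7c, Cox6c), 2 with the replicate block (Atp5e, Ndufa12), and 0 to 2 with 1 library left out, 2 (Cox7c, Atp5k) without the first WT CD62L- library, and in CD62L- cells alone 1 with DESeq2 (Cox7c), all higher in Batf3-/- recipients. The cause was not tested.

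Of the 1300 values of named genes under alternatives, 1236 kept direction and side of the threshold, 42 lost a call, 11 gained one and 11 changed sign. With 1 library left out, the log2 fold change over primed and naive cells ran from -0.03 to 0.08 for Sdha, -0.09 to 0.11 for Sdhc, -0.13 to 0.10 for Ndufs1 and -0.93 to 5.45 for Cox4i2. The sign changes, none in a called value, were Sdha (-0.03) and Sdhc (-0.09) without the third naive library, Ndufs1 without the first naive (0.10), the first WT CD62L+ (0.01), the second Batf3-/- CD62L+ (0.01) or the 2 libraries that stood apart (0.01), and Cox4i2 under the replicate block (-0.85) and without the second or the third naive (-0.10), the second Batf3-/- CD62L- (-0.93) or the second Batf3-/- CD62L+ library (-0.81). The replicate block called 55 higher and 4 lower in all primed cells. The numbers are not stated to pair the samples. Deviations from group means correlated at 0.0162 to 0.111 in the 30 pairs of libraries with the same number and at -0.106 to 0.03 in the 60 others, and all 15 libraries correlated best with their own number, a hint from the data and not the design. Genes under about 2 CPM, such as Cox4i2 and Cox6b2, are limited by depth.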
